A study of Homo sapiens with 8 samples.

Results

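The 10 genes described here are regulators of apoptosis: MCL1, BCL2, BCL2L1, BCL2L11, BAX, BAK1, BID, PMAIP1 and BIK of the BCL2 family, and XIAP, an inhibitor of caspases. They were chosen by symbol, through the Ensembl identifier of each row, and all 10 were found among 63241 identifiers. The study used HepG2 and Huh7, both established lines from human liver cancer. From each, SR cells were selected by stepwise exposure to increasing sorafenib, a multikinase inhibitor used against liver cancer, and WT cells are the sorafenib-sensitive controls. Polyadenylated RNA was sequenced in 8 libraries, 2 each for WT and SR cells of either line, and the question addressed here is whether the SR libraries differ from WT in these genes. Levels are in FPKM, in which fragments are divided by transcript length and library size, so they can be compared between genes. The labels give SR samples the treatment sorafenib and WT samples the treatment control. They do not say whether sorafenib was present at harvest, whether SR cells are 1 clone, or whether replicates are separate cultures, so p-values measure the spread between these libraries only, which may be technical.

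Mitochondrial apoptosis is set by the balance between members of the BCL2 family. The guardians MCL1, BCL2 and BCL-XL (the product of BCL2L1) hold the effectors BAX and BAK1 in check, and BH3-only proteins such as BIM (BCL2L11), BID, NOXA (PMAIP1) and BIK bind the guardians or activate the effectors. Once BAX and BAK1 open the outer mitochondrial membrane, cytochrome c is released and caspases are activated, which XIAP blocks by direct binding. Normal liver cells depend on BCL-XL and MCL1, and sorafenib is known to reduce MCL1 protein, a change in translation and stability that an mRNA level does not report.

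The libraries did not sort by their labelled cell line, and this touches every result below. Over the 15173 genes tested, Pearson's r of log2(FPKM + 1), taken across genes, which are not independent replicates, was between 0.914 and 0.977 within sets of like libraries and between 0.731 and 0.846 across them. A set of 5 alike libraries held both HepG2 WT libraries, HepG2 SR replicate 1 and the replicate 2 libraries of Huh7 WT and Huh7 SR. Huh7 WT replicate 1 and Huh7 SR replicate 1 formed a pair, and HepG2 SR replicate 2 stood alone. Hepatocyte markers were present in every group, with the summed level of 8 genes between 618 and 7496 FPKM, although ALB, the gene of albumin, ranged from 11.98 FPKM in Huh7 WT replicate 1 to 4713 FPKM in HepG2 SR replicate 2. PTPRC and CD3E of leukocytes, VWF and CDH5 of endothelium and DCN of fibroblasts were at or below 0.225 FPKM in every library. The summed levels of the 3 leukocyte, 3 endothelial and 3 fibroblast markers were 3.94 to 29.1, 0.772 to 4.52 and 0.0503 to 2.24 FPKM, with 1, 1 and 2 genes reaching 1 FPKM in any library. These genes were CD68 (3.94 to 29.1 FPKM), PECAM1 (0.517 to 4.28 FPKM), COL1A1 (0.0503 to 1.67 FPKM) and COL3A1 (0 to 1.55 FPKM). Estimated depth was 27.6 to 54.3 M reads, and 12829 to 13386 genes reached 1 FPKM per library. HepG2 WT replicate 2, with the lowest depth, had 38276 genes above 0 FPKM, against 27188 to 29071 in the others. The summed FPKM of all genes was higher in every SR library (411763 to 429111) than in every WT library (384792 to 403905). A narrow separation of SR above WT may therefore not hold on a common sum. Groups are those of the labels throughout, and a value for a cell line is that of the libraries carrying its label. Whether libraries were exchanged between labels was not tested. In such bulk samples, fewer cells with a transcript and less of it per cell cannot be told apart.

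The order of the members was largely shared by the 8 libraries. BCL2L1 had the highest level of the 10 in 8 of 8 libraries, between 59.3 and 301.0 FPKM, above 91.9% to 98.9% of genes expressed at 1 FPKM or more. BCL2 had the lowest level in 8 of 8 libraries, between 0.00196 and 0.703 FPKM. BAX (25.5 to 125 FPKM) and MCL1 (23.0 to 78.8 FPKM) followed, at rank 2 to 4 and 2 to 3, and overlapped: BAX lay above MCL1 in HepG2 and in Huh7 SR replicate 2, and below it in the other 3 Huh7 libraries. In Huh7 WT replicate 1, PMAIP1 at 31.9 FPKM also lay above BAX. BAK1 held rank 4 or 5, at 8.397 to 30.6 FPKM. BID, PMAIP1, BIK, XIAP and BCL2L11 overlapped one another, at 0.166 to 31.9 FPKM, and changed places from library to library.

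**Figure D1:**
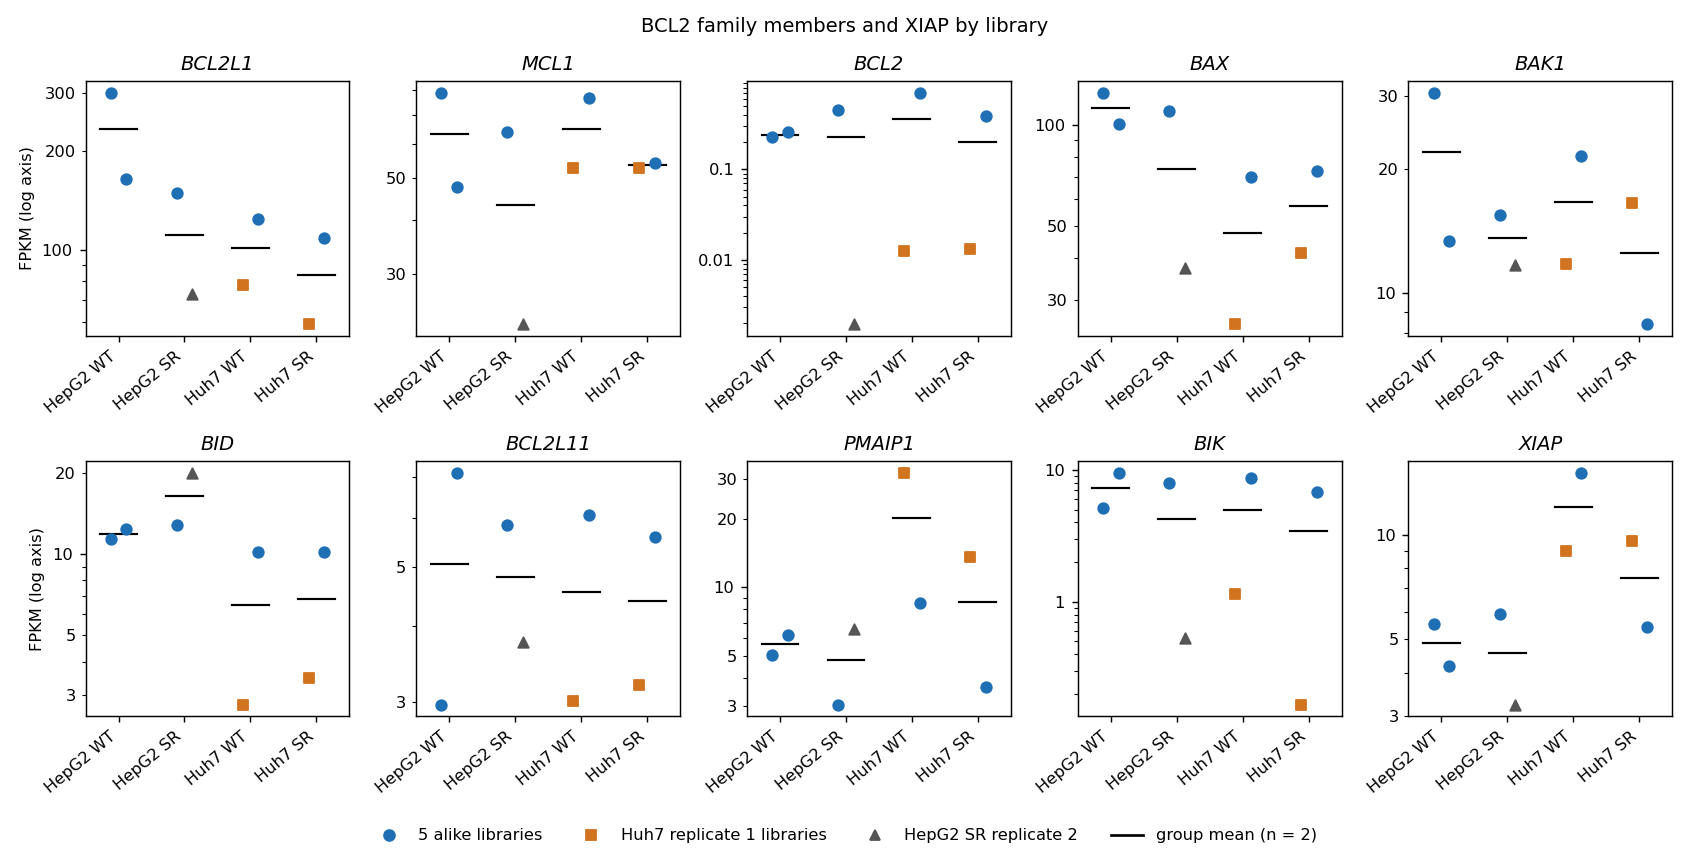
FPKM (log axis, a separate scale in each panel) of the 10 members in each of the 8 libraries by labelled group, with the mean of the 2 libraries of a group as a line. Circles are the 5 alike libraries, squares the Huh7 replicate 1 libraries and triangles HepG2 SR replicate 2; BCL2L1, BCL2, BAX and BIK were each lower in the 3 libraries of the last 2 kinds than in the 5 alike libraries, with BIK at 0.166 to 1.15 FPKM against 5.15 to 9.49 FPKM.

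Summed over each class, the guardians stood between 96.2 and 380 FPKM, the effectors between 37.3 and 155 FPKM, and the 4 BH3-only genes between 20.4 and 38.8 FPKM per library. The sum of the guardians was thus largely BCL2L1 and MCL1 in every library. Within a library, the ratio of BAX to BCL2 ran from 99.5 to 548 among the 5 alike libraries. In the other 3 the estimated BCL2 reads were between 1.05 and 8.07, too few to give a ratio. The ratio of MCL1 to its BH3-only partner PMAIP1 ran from 1.66 in Huh7 WT replicate 1 to 20.9 in HepG2 SR replicate 1. The ratio of BCL2L1 to BCL2L11 was 101 in HepG2 WT replicate 1 and between 18.5 and 25.9 in the other 7 libraries.

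SR was compared with WT by limma on log2(FPKM + 1), a scale that understates the change of low genes. A gene was called at the thresholds of the study, an unadjusted p under 0.05 with a log2 change of 0.5 or more, or below -0.5. Of the 10 members, 9 passed the filter of at least 1 FPKM in at least 2 libraries and were tested, and BCL2 was not. In HepG2, 0 of 9 were called, against 2.14% of all 15173 genes. In Huh7, 0 of 9 were called, against 1.87%, and for the difference between the cell lines 0 of 9, against 0.606%. Over both cell lines, taken as the mean of their changes, 0 of 9 were called, against 3.93%.

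The limma test at an adjusted p under 0.05 called 0 members and 0 of all genes (0.00%) in each of these 4 comparisons. At an unadjusted p under 0.05 it gave 325 genes in HepG2, 283 in Huh7, 92 for the difference and 597 over both cell lines, with 0 members among them. The smallest unadjusted p of a member was 0.0857 in HepG2 and 0.115 over both cell lines, each for BCL2L1, and 0.194 in Huh7, for PMAIP1. The adjusted p of the members lay between 0.956 and 1. With 2 libraries per group and standard errors of 0.46 to 1.23 within a cell line on the log2 scale, these data could not show small changes. The standard errors include the spread between library sets within a group.

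Most point estimates lay below 0. In HepG2, 7 of 9 members did, with a median log2 fold change of -0.56 against -0.026 over all genes, of which 47.6% lay above 0. In Huh7, 7 of 9 did as well, with a median of -0.29 against -0.055 and 44.7% of all genes above 0. Over both cell lines 8 of 9 did, with a median of -0.45 against -0.046 and 44.9% above 0. These counts moved with single libraries. Without HepG2 SR replicate 2, 4 of 9 lay below 0 in HepG2 and the median was 0.058, and 6 of 9 did over both with a median of -0.19. Without Huh7 WT replicate 2, 2 of 9 lay below 0 in Huh7 and the median was 0.036, and without Huh7 SR replicate 1, 4 of 9 did and it was 0.14. Without Huh7 WT replicate 1, 9 of 9 lay below 0 in Huh7 (median -0.62) and over both (-0.56). Over both, at least 6 of 9 did whichever library was left out. With library set and SR or WT status as the only terms, and none for cell line, 6 of 9 lay below 0, with a median of -0.19 against -0.036 over all genes. Within the 5 alike libraries 7 of 9 did, with a median of -0.16 against -0.048.

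**Figure D2:**
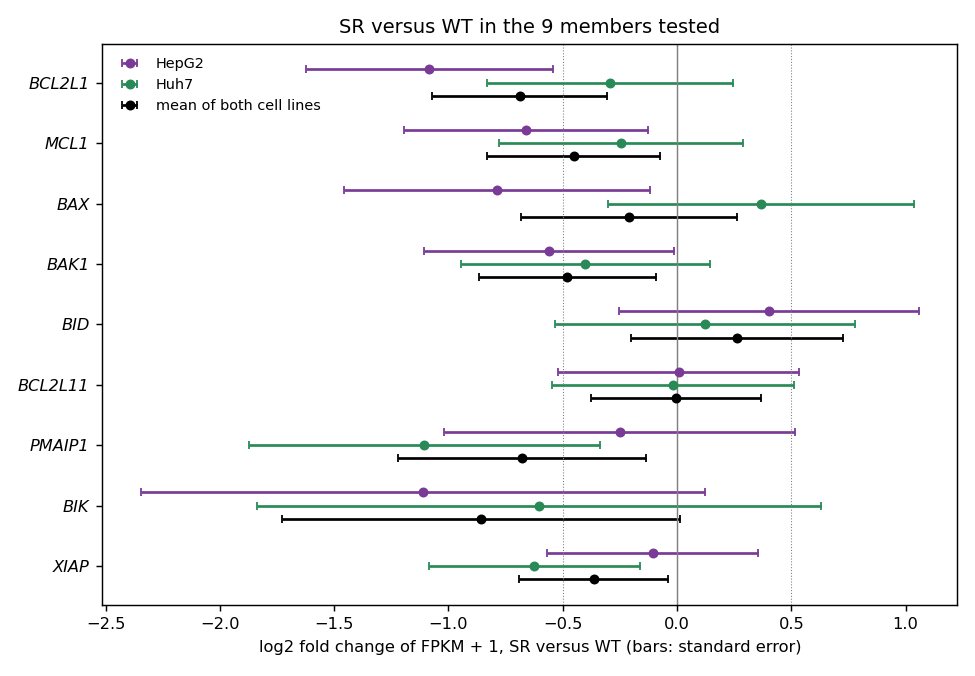
Log2 fold change of FPKM + 1 in SR versus WT for the 9 members tested, within HepG2, within Huh7 and as the mean of both cell lines, with the standard error as bars. Dotted lines mark 0.5 and -0.5; the lowest values are BIK at -1.11 and BCL2L1 at -1.08 in HepG2 and PMAIP1 at -1.11 in Huh7, and 0 of the 9 genes passed the test.

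Among the guardians, BCL2L1 (ENSG00000171552, GRCh38 chromosome 20, 31664452 to 31723989, minus strand) encodes BCL-XL and had levels of 301.0 and 164 FPKM in the HepG2 WT libraries, against 148 and 73.2 FPKM in HepG2 SR. Both SR libraries lay below both WT libraries, so the groups did not overlap. The Huh7 libraries held 78.2 and 124 FPKM in WT and 59.3 and 108 FPKM in SR, which overlapped. The log2 fold change was -1.08 (SE 0.54, unadjusted p = 0.0857) in HepG2, -0.29 (SE 0.54) in Huh7 and -0.69 (SE 0.38, unadjusted p = 0.115) over both. Without HepG2 SR replicate 1 the HepG2 value was -1.59, with HepG2 SR replicate 2 as the only library of its group. Without HepG2 SR replicate 2 or HepG2 WT replicate 1 it was -0.58 or -0.65. The exons of BCL2L1 share 1424 bases with the antisense gene ABALON, and since counting is not stated to use strand, reads of both loci cannot be told apart.

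MCL1 (ENSG00000143384, chromosome 1, 150574551 to 150579738, minus strand), the short-lived guardian, was measured at 78.8 and 47.6 FPKM in HepG2 WT, and HepG2 SR had 63.9 and 23.0 FPKM. Huh7 WT had 52.8 and 76.8 FPKM, and Huh7 SR 52.9 and 54.3 FPKM. Groups overlapped in both cell lines, and the low value was that of HepG2 SR replicate 2. By limma, the log2 fold change was -0.66 (SE 0.53) in HepG2 and -0.24 (SE 0.53) in Huh7. Without HepG2 SR replicate 1 the HepG2 value was -1.38 and that over both lines -0.81. HepG2 SR replicate 2 was then the only library of its group. Without HepG2 SR replicate 2 the HepG2 value was 0.058.

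BCL2 (ENSG00000171791, chromosome 18, 63123346 to 63320128, minus strand), the founding guardian of the family, was barely expressed. It reached 0.227 and 0.256 FPKM in the HepG2 WT libraries and 0.451 and 0.00196 FPKM in those of HepG2 SR. For Huh7 the levels were 0.0126 and 0.703 FPKM in WT, against 0.0133 and 0.386 FPKM in SR. The lowest value, in HepG2 SR replicate 2, corresponds to about 1.05 reads at the estimated depth, and those of Huh7 replicate 1 to about 8.07 and 6.52 reads. The 5 alike libraries held between 0.227 and 0.703 FPKM and the other 3 no more than 0.0133 FPKM, without overlap. No change was computed from these values.

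Of the effectors, BAX (ENSG00000087088, chromosome 19, 48954815 to 48961798, plus strand) had levels of 125 and 100.3 FPKM in the HepG2 WT libraries, against 110.0 and 37.4 FPKM in HepG2 SR. Levels in Huh7 were 25.5 and 69.9 FPKM in WT and 41.4 and 72.8 FPKM in SR. SR and WT overlapped in both lines, and the 3 low libraries were those outside the set of 5. SR differed from WT by a log2 fold change of -0.79 (SE 0.67) in HepG2 and 0.37 (SE 0.67) in Huh7, and the difference of 1.16 (SE 0.95, unadjusted p = 0.262) did not pass the test. Without HepG2 SR replicate 2 the HepG2 value was -0.024, and without HepG2 SR replicate 1 it was -1.55. Its RefSeq promoter window, 250 bases before to 50 after the start (GRCh38.p14, chr19:48954625-48954924, plus strand), is shown because BAX moved with the library sets described below, with each E-box, CACGTG, in capitals.
BAX: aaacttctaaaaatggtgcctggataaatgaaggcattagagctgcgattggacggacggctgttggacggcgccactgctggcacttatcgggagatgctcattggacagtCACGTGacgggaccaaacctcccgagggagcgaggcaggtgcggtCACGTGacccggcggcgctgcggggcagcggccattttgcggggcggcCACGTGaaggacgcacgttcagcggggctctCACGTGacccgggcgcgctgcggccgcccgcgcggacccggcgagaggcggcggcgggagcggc
The window holds 4 E-boxes, a palindrome bound by MYC and USF proteins, while 7.26% of the 35116 RefSeq promoter windows hold at least 1. The windows of BCL2L1, which moved with the same library sets, hold 0. Some windows of BID hold 1, and BID split the library sets in another order. BID stood at 10.2 to 12.8 FPKM in the 5 alike libraries. It stood at 2.77 to 3.47 FPKM in the Huh7 replicate 1 libraries and at 20.1 FPKM in HepG2 SR replicate 2. A link between the motif and the library sets was not tested. Windows were found for 8 of the 10 members, 15 in all, MCL1 and BIK being without. Such matches describe letters in a window and not bound sites.

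BAK1 (ENSG00000030110, chromosome 6, 33572547 to 33580293, minus strand), the other effector, was measured at 30.6 and 13.3 FPKM in HepG2 WT, and HepG2 SR had 15.5 and 11.7 FPKM. The Huh7 libraries held 11.8 and 21.5 FPKM in WT and 16.5 and 8.397 FPKM in SR. Groups overlapped in both lines, and BAK1 did not follow the library sets, its lowest value being that of Huh7 SR replicate 2. On the log2 scale, the change was -0.56 (SE 0.55) in HepG2 and -0.40 (SE 0.55) in Huh7. Its exons share 91 bases with GGNBP1 on the opposite strand.

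Of the BH3-only genes, PMAIP1 (ENSG00000141682, chromosome 18, 59899948 to 59904306, plus strand) encodes NOXA, which binds MCL1 and promotes its degradation. It reached 5.02 and 6.20 FPKM in the HepG2 WT libraries and 3.05 and 6.54 FPKM in those of HepG2 SR. Huh7 WT had 31.9 and 8.53 FPKM, and Huh7 SR 13.6 and 3.64 FPKM. Groups overlapped in both lines, and the 2 highest values were those of the Huh7 replicate 1 libraries, in which SR nevertheless lay below WT. The log2 fold change was -0.25 (SE 0.77) in HepG2 and -1.11 (SE 0.77, unadjusted p = 0.194) in Huh7. Without Huh7 WT replicate 2 the Huh7 value was -1.998, with Huh7 WT replicate 1 as the only library of its group. Without Huh7 WT replicate 1 or Huh7 SR replicate 2 it was -0.21 or -0.28.

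PMAIP1 was also compared among the 5 alike libraries, 3 WT and 2 SR. Its WT libraries stood at 5.02, 6.20 and 8.53 FPKM and its SR libraries at 3.05 and 3.64 FPKM, without overlap. By limma, the log2 fold change was -0.78 (SE 0.31, unadjusted p = 0.0469, adjusted p = 0.843). It was the only one of 9 members called there, against 5.06% of all genes, and SR and WT did not overlap in 23.2% of all genes. A single member of 9 is too few to set the members apart from these shares. In the Huh7 replicate 1 pair, a single library each, the log2 difference between SR and WT was -1.17. A second fit, of all 8 libraries, had library set and SR or WT status as its only terms. Neither it nor the fit of the 5 libraries had a term for cell line. HepG2 SR replicate 2, alone in its set, does not bear on the change in the second fit. There, by limma, the change of PMAIP1 was -0.90 (SE 0.23, unadjusted p = 0.00490, adjusted p = 0.478). PMAIP1 was again the only one of 9 called, against 8.21% of all genes. PMAIP1 fell at the thresholds of the study in these 2 fits, which both use library sets found from these data, the fit of the 5 libraries being added after the data were seen, and not in the comparison of the labelled groups without a further term.

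The RefSeq promoter window of PMAIP1 (GRCh38.p14, chr18:59899746-59900045, plus strand) is shown because PMAIP1 was the only member called within a set of alike libraries, with the GC box, GGGCGG on either strand, in capitals.
PMAIP1: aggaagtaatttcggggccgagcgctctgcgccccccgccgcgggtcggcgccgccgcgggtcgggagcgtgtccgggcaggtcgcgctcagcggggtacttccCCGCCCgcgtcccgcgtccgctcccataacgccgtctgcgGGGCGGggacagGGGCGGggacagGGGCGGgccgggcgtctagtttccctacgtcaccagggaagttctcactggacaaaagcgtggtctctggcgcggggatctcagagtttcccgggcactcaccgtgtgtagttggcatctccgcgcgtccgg
The window holds 4 GC boxes, the element bound by SP1, while 45.0% of all windows hold at least 1. It also holds 1 match to TGACG, the core shared by elements that bind CREB and ATF proteins, on the minus strand, and 24.6% of all windows hold that motif on either strand. E-boxes were absent from it.

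BIK (ENSG00000100290, chromosome 22, 43110748 to 43129712, plus strand), a BH3-only protein of the endoplasmic reticulum, varied most among the members expressed at 1 FPKM or more on average, with an SD of 1.30 on the log2 scale. It had levels of 5.15 and 9.49 FPKM in the HepG2 WT libraries, against 8.02 and 0.530 FPKM in HepG2 SR. For Huh7 the levels were 1.15 and 8.73 FPKM in WT, against 0.166 and 6.76 FPKM in SR. Low and high libraries occurred in 3 of the 4 groups, and SR and WT overlapped in both lines. SR differed from WT by a log2 fold change of -1.11 (SE 1.23) in HepG2 and -0.60 (SE 1.23) in Huh7. Within the 5 alike libraries it was -0.033 (SE 0.33), with the 2 SR libraries between the WT libraries.

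The genes most like BIK over the 8 libraries, by the root mean square difference of centred log2(FPKM + 1), were FZD6 (0.226), CPED1 (0.250) and DGLUCY (0.252). FZD6, a WNT receptor, ranged from 0.427 to 11.1 FPKM. Each of the 3 had its lowest values in HepG2 SR replicate 2 and the Huh7 replicate 1 libraries, as BIK did.

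BID (ENSG00000015475, chromosome 22, 17734138 to 17774770, minus strand), which links death receptors to mitochondria after cleavage by caspase 8, was measured at 11.4 and 12.4 FPKM in HepG2 WT, and HepG2 SR had 12.8 and 20.1 FPKM. Levels in Huh7 were 2.77 and 10.2 FPKM in WT and 3.47 and 10.2 FPKM in SR. Both HepG2 SR libraries lay above both WT libraries, by little for replicate 1, and in Huh7 the groups overlapped. On a common sum of FPKM the small gap of HepG2 SR replicate 1 was lost. It had 12.8 of 411763 FPKM, against 12.4 of 396118 FPKM in HepG2 WT replicate 2. On the log2 scale, the change was 0.40 (SE 0.65) in HepG2 and 0.12 (SE 0.65) in Huh7. In FPKM without such rescaling, BCL2L1 below and BID above were the 2 of 9 members without overlap between SR and WT in HepG2. The share of all genes was 38.2% (20.1% below and 18.1% above). In Huh7 0 of 9 members were without overlap, against 22.0%. Over all 8 libraries, 0 of 9 members had their 4 SR libraries on one side of the 4 WT libraries, against 3.68%.

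BCL2L11 (ENSG00000153094, chromosome 2, 111119378 to 111168447, plus strand) encodes BIM, which binds every guardian. It reached 2.98 and 7.12 FPKM in the HepG2 WT libraries and 5.85 and 3.77 FPKM in those of HepG2 SR. The Huh7 libraries held 3.01 and 6.08 FPKM in WT and 3.20 and 5.59 FPKM in SR. The SR libraries lay between the WT libraries in both cell lines. The log2 fold change was 0.0081 (95% interval -1.25 to 1.26) in HepG2 and -0.018 (-1.27 to 1.24) in Huh7, so changes of more than 2-fold in either direction were inside the interval. Its exons share 727 bases with MIR4435-2HG on the opposite strand.

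XIAP (ENSG00000101966, chromosome X, 123859724 to 123913979, plus strand) had levels of 5.54 and 4.18 FPKM in the HepG2 WT libraries, against 5.90 and 3.24 FPKM in HepG2 SR. Huh7 WT had 8.998 and 15.1 FPKM, and Huh7 SR 9.57 and 5.41 FPKM. Groups overlapped in both lines, with the highest value in Huh7 WT replicate 2. By limma, the log2 fold change was -0.11 (SE 0.46) in HepG2 and -0.62 (SE 0.46) in Huh7.

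BCL2L1, BAX and BIK were the 3 of 9 tested members whose 5 alike libraries all lay above the other 3, and 0 lay all below, while 16.0% of all genes lay above and 13.2% below. BCL2L1 stood at 108 to 301.0 FPKM in the 5 and at 59.3 to 78.2 FPKM in the 3. BAX stood at 69.9 to 125 FPKM and at 25.5 to 41.4 FPKM. The sets were found from the same genes, so these values are a description and carry no test. The split mixes WT with SR and HepG2 with Huh7, and cannot be told apart from the identity of the libraries.

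In the other BCL2 family list, the 5 alike libraries lay above the other 3 in 2 of 10 tested genes, against 16.0% of all genes. They lay below in 0, against 13.2%. The 2 genes were BOK and BBC3. These genes, and KRT19, were chosen after their values were seen. BBC3, the gene of the BH3-only protein PUMA, stood at 15.6 to 25.2 FPKM in the 5 and at 1.95 to 3.04 FPKM in the 3. BOK, a relative of BAX and BAK1, stood at 8.05 to 22.9 FPKM in the 5 and at 3.40 to 3.86 and 2.27 FPKM in the Huh7 pair and HepG2 SR replicate 2. Of the 3 biliary and epithelial markers, 1 followed the split, the keratin KRT19 at 155 to 760 and at 0.179 to 2.37 FPKM, while SOX9 (15.6 to 78.4 and 3.76 to 54.1 FPKM) and KRT7 (0.203 to 4.75 and 0 to 0.551 FPKM) overlapped. Of the 8 hepatocyte markers, 0 lay above in the 5 alike libraries and 1 below. The part of cell identity in the levels of BAX, BIK and BCL2L1 was not tested.

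**Figure D3:**
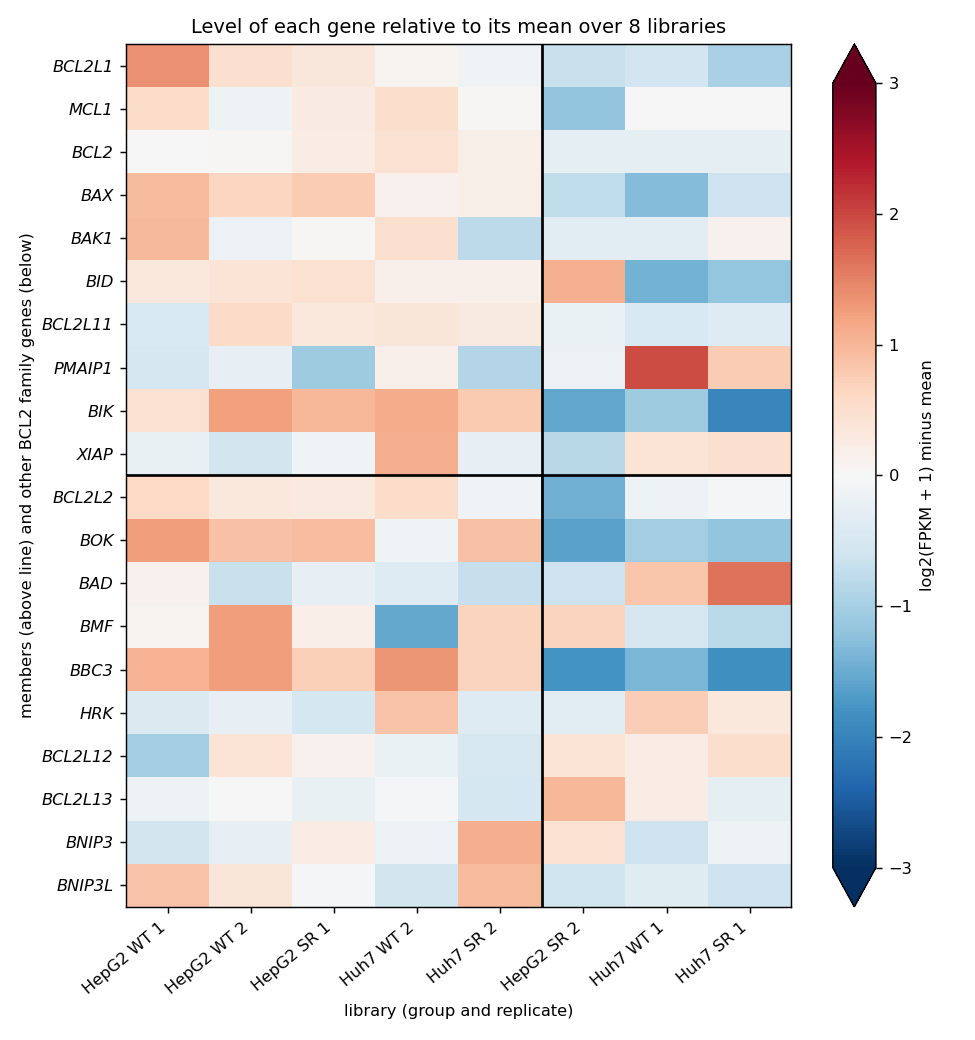
Colour gives log2(FPKM + 1) of each gene minus its mean over the 8 libraries, for the 10 members (above the line) and the 10 tested genes of the other BCL2 family list (below it), with the 5 alike libraries at left and the other 3 at right. BAX, BIK, BOK and BBC3 are lower at right, and PMAIP1 is highest in the Huh7 replicate 1 libraries at right.

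Around the members, 6 further lists held 64 genes of the pathway, 55 of them tested. At the thresholds of the study, 0 of 55 were called in HepG2, against 2.14% of all genes, and 2 in Huh7 (BIRC2 and DDIT3), against 1.87%. For the difference between the lines 1 was called (DDIT3), against 0.606%. Over both cell lines 4 were called (BIRC2, BNIP3, CFLAR and ATF3), against 3.93%. Of the 55 genes, 3 had their 4 SR libraries all above or all below the 4 WT libraries (5.45%, against 3.68% of all genes): BIRC2, BNIP3 and CASP2. BNIP3 and CASP2 each lay above by little in 1 SR library. On a common sum of FPKM, neither had all 4 SR libraries above WT. For BNIP3, Huh7 SR replicate 1 had 58.5 of 415772 FPKM, against 57.8 of 403905 FPKM in Huh7 WT replicate 2. For CASP2, HepG2 SR replicate 1 had 6.67 of 411763 FPKM, against 6.56 of 384792 FPKM in HepG2 WT replicate 1.

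In the list of inhibitors of apoptosis and their antagonists, 8 of 9 were tested and 1 fell over both cell lines. BIRC2, which encodes the ubiquitin ligase cIAP1, was measured at 38.5 and 29.7 FPKM in HepG2 WT, and HepG2 SR had 29.6 and 13.5 FPKM. For Huh7 the levels were 63.0 and 55.9 FPKM in WT, against 23.8 and 29.7 FPKM in SR. All 4 SR libraries lay below all 4 WT libraries, although HepG2 WT replicate 2 (29.671 FPKM) and Huh7 SR replicate 2 (29.666 FPKM) all but touched. SR differed from WT by a log2 fold change of -0.93 (SE 0.30, unadjusted p = 0.0185, adjusted p = 0.998) over both and -1.13 (SE 0.43, unadjusted p = 0.0338, adjusted p = 1) in Huh7. In the 5 alike libraries it was -0.42 (SE 0.30, unadjusted p = 0.216), and BIRC2 was not called. The call over both lines was also lost without HepG2 WT replicate 1 (-0.84) and without Huh7 SR replicate 1 (-0.85), and that in Huh7 in 6 of the 8 fits that left out 1 library (-1.29 to -0.98). The medians of this list were -0.58 in HepG2 and -0.27 in Huh7.

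In the list of other BCL2 family genes, 10 of 14 were tested, 1 rose over both cell lines and 0 fell. BNIP3, a mitophagy receptor induced by hypoxia, reached 44.0 and 54.7 FPKM in the HepG2 WT libraries and 76.1 and 89.5 FPKM in those of HepG2 SR. Levels in Huh7 were 42.3 and 57.8 FPKM in WT and 58.5 and 139 FPKM in SR. All 4 SR libraries lay above all 4 WT libraries, by little for Huh7 SR replicate 1, a gap that was lost on a common sum of FPKM. The log2 fold change over both was 0.80 (SE 0.33, unadjusted p = 0.0454, adjusted p = 0.998), and within the 5 alike libraries 0.98 (SE 0.32, unadjusted p = 0.0238, adjusted p = 0.843). The call over both lines was lost in 7 of the 8 fits that left out 1 library, all but that without Huh7 SR replicate 1, with values between 0.49 and 1.11.

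In the list of caspases and the apoptosome, all 10 genes were tested. CASP2, an initiator caspase, had levels of 6.56 and 4.70 FPKM in the HepG2 WT libraries, against 6.67 and 15.2 FPKM in HepG2 SR. The Huh7 libraries held 5.22 and 6.25 FPKM in WT and 8.26 and 6.98 FPKM in SR. The 4 SR libraries lay above the 4 WT libraries, but HepG2 SR replicate 1 by little, and not on a common sum of FPKM. By limma, the log2 fold change of 0.56 (SE 0.32, unadjusted p = 0.1201) did not pass the test. Without HepG2 SR replicate 1 it was 0.83, with HepG2 SR replicate 2 as the only library of its group. CFLAR, the gene of c-FLIP, which keeps caspase 8 inactive, was the single gene of this list called over both lines, at -0.74 (SE 0.29, unadjusted p = 0.0412, adjusted p = 0.998).

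**Figure D4:**
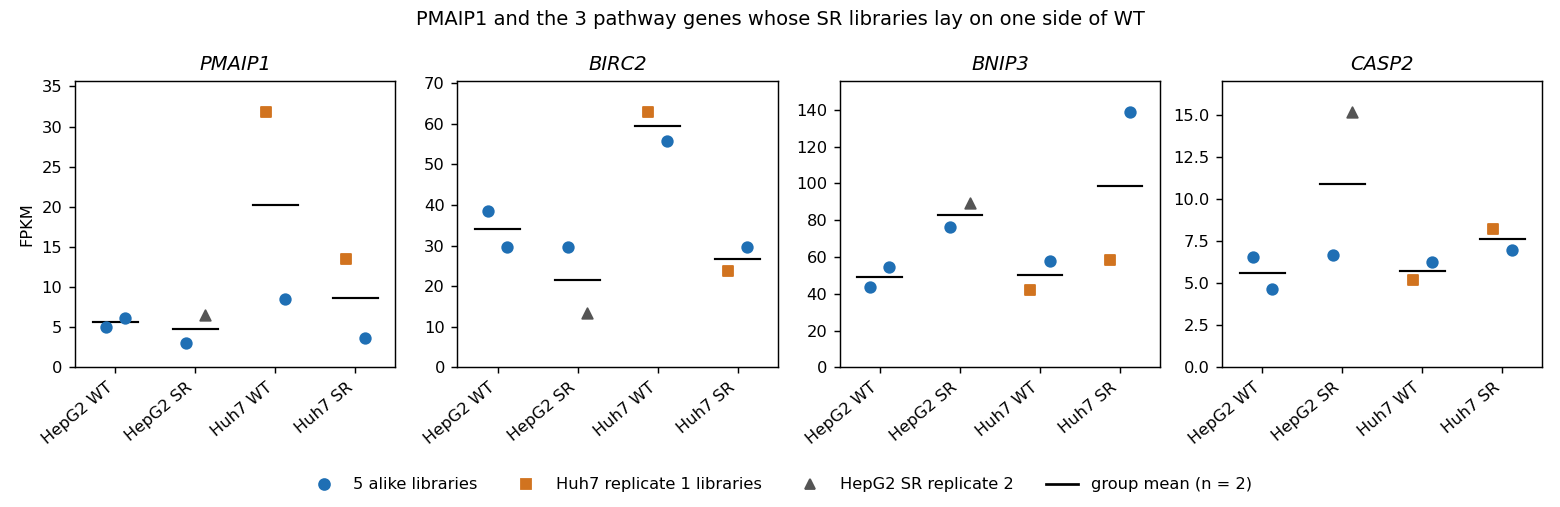
FPKM (linear axis from 0) of PMAIP1, BIRC2, BNIP3 and CASP2 in each library by labelled group, with group means as lines and symbols for the library sets. The SR libraries of BIRC2 lie between 13.5 and 29.7 FPKM, below all WT libraries. Those of BNIP3 and CASP2 lie above all WT libraries in FPKM, but not on a common sum of FPKM. Those of PMAIP1 overlap with WT, but SR lies below WT among the circles and among the squares.

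Among the transcription factors of members, 10 of 11 were tested. DDIT3, which encodes CHOP, a factor of the unfolded protein response, fell in Huh7, where WT had 32.1 and 43.8 FPKM and SR had 18.8 and 9.08 FPKM. In HepG2 it stood at 10.2 and 10.1 FPKM in WT and at 12.8 and 10.1 FPKM in SR, with SR replicate 2 between the WT libraries. On the log2 scale, the change was -1.45 (SE 0.42, unadjusted p = 0.0109, adjusted p = 1) in Huh7 and 0.15 (SE 0.42) in HepG2. The Huh7 call was lost without Huh7 WT replicate 2 (-1.23) or Huh7 SR replicate 2 (-0.96). ATF3, a stress-induced factor, was called over both lines at -1.58 (SE 0.62, unadjusted p = 0.0383, adjusted p = 0.998), and, like CFLAR, is named because it completes the count.

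The 2 remaining lists held no called gene. Of the death receptors and adaptors, 10 of 12 were tested. The highest were TNFRSF10B, a receptor of TRAIL, at 28.2 to 177 FPKM, and TNFRSF1A, the main TNF receptor, at 14.7 to 80.0 FPKM. Of the genes of MCL1 turnover and mitochondrial partners, 7 of 8 were tested. VDAC1 (67.0 to 152 FPKM) and VDAC2 (56.002 to 114 FPKM), channels of the outer mitochondrial membrane, were the highest.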

How the data were processed

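mRNA was sequenced in 8 libraries, which the labels place in 4 groups of 2. The authors enriched polyadenylated RNA on oligo(dT) beads, prepared libraries with the NEBNext Ultra kit and deposited 1 FPKM value for each gene of each library, already scaled for depth and transcript length. The submitters' processing notes name fastp 0.20.0 and GRCh38; the aligner, quantification tool and annotation are not given in the sources used here. The authors used edgeR, which needs counts, so that test was not repeated. The labels place all libraries in a single batch.

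For testing, log2(FPKM + 1) was fitted with limma (version 3.58.1, R 4.3.3; group means, eBayes with trend, 4 residual degrees of freedom), over 15173 genes with at least 1 FPKM in at least 2 libraries, with Benjamini-Hochberg adjustment over all of them. Library sets were cut where r fell under 0.9. Depth was estimated from the value of a single read in low genes. Positions came from GENCODE release 29, in which 58228 of 63241 identifiers were found, and promoters from RefSeq (GRCh38.p14).

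The members and lists were chosen with earlier results of these data known. All members are named. Of other lists, named are up to 3 genes per cell line past the thresholds, genes with SR on one side of WT, and otherwise the 2 highest. The pipeline was tested on simulated data. Alternatives covered the pseudocount, filter, scaling, thresholds, library set, replicate number and each library left out. Python 3.11.15, with pandas 2.3.3 and matplotlib 3.10.9, drew the figures. A further list of pathway genes is not reported here.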

Additional observations from a re-analysis of the deposited data

Results flagged for a closer look

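For DDIT3, the limma interaction of SR versus WT with the labelled cell line was -1.60 on the log2 scale (Huh7 minus HepG2, SE 0.59, unadjusted p = 0.0312, adjusted p = 0.9998). After adjustment, a difference between the cell lines was not established. DDIT3 fell by 1.45 in Huh7, where both SR libraries lay below both WT libraries, and its HepG2 value was 0.15. Within the 5 alike libraries its value was -0.59 (SE 0.68, unadjusted p = 0.422), and the 2 Huh7 WT libraries, of different library sets, held its 2 highest levels, at 32.1 and 43.8 FPKM.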

How the results depend on the processing

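The main limits are 2 libraries per group and library sets that do not follow the labels. No member was called in any comparison with another pseudocount (0.1), filter, scaling, fit per cell line, fit without trend or larger fold cutoff. With a filter at 0.1 FPKM, 504 genes were called in HepG2 and 254 for the difference between lines, and with no filter 168 for the difference. A fit of Huh7 alone called 120 genes. With adjusted p, 0 were called in all 4 comparisons, and a log2 fold cutoff of 1 left 218 over both lines. With library set and SR or WT status as the only terms, and none for cell line, 1245 genes and 1 member (PMAIP1) were called. In the 5 alike libraries 1 member was called, also without a term for cell line, an alternative added after the data were seen. Same-numbered deviations correlated at 0.125 in HepG2 and 0.796 in Huh7, over 2 pairs each, and no label says that a number marks a shared culture or day, so pairing was not assumed. In Huh7 the replicate numbers coincided with the library sets, so the unpaired spread includes that split. The replicate block called 1392, 669, 535 and 1509 genes in HepG2, Huh7, the difference and both, with 1 member in HepG2 (BCL2L1), 1 in Huh7 (PMAIP1) and 2 over both.

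BCL2L11 changed sign, at 0.0044 over both lines with the other pseudocount, -0.078 in HepG2 as TPM, 0.066 in Huh7 and 0.078 over both with quantile normalization, 0.12 with the library set as a term and 0.14 in the 5 alike libraries. BAX was 0.13 with the library set as a term, in the fit without a term for cell line. The cause was not tested.

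Leaving out 1 library, with the lone library of its group assumed to vary like the others, gave 58 to 1744 called genes in HepG2, 153 to 816 in Huh7, 23 to 944 for the difference and 190 to 1278 over both, and 0 to 2, 0 to 1, 0 to 0 and 0 to 1 members. In HepG2 the lowest and highest log2 fold changes were -1.38 and 0.058 for MCL1, -0.51 and 0.52 for BCL2L11, -1.13 and 0.010 for BAK1, -0.70 and 0.20 for PMAIP1, -2.39 and 0.17 for BIK and -0.46 and 0.25 for XIAP. In Huh7 they were -0.51 and 0.021 for MCL1, -0.72 and 0.14 for BCL2L1, -0.43 and 0.39 for BCL2L11, -0.34 and 1.08 for BAX, -0.85 and 0.050 for BAK1, -0.66 and 0.91 for BID and -1.97 and 0.76 for BIK. Over both they were -0.26 and 0.25 for BCL2L11, -0.59 and 0.17 for BAX and -0.13 and 0.66 for BID. The call of BNIP3 over both lines was lost as TPM (0.71), with quantile normalization (0.72) and without trend.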
